A study of Mus musculus with 30 samples.

Results

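Gene expression was compared between mouse fibroblasts that carried a MyoD fusion protein which could not be acetylated on 3 lysines and fibroblasts that carried the wild-type fusion, 6 h after the cells were placed in differentiation medium with hormone. The comparison used the 3 arrays titled as mutant MyoD at 6 h and the 3 arrays titled as wild-type MyoD at 6 h, 6 of the 30 arrays of the series, and all 18193 genes. Every cell came from MyoD-/-/Myf5-/- mouse embryos and was transduced with a retrovirus. ER-MyoD wt joins mouse MyoD to the hormone-binding domain of the estrogen receptor, and ER-MyoD RRR is the same fusion with point mutations at lysines 99, 102 and 104. An empty retrovirus served as the control. Both fusions and the control were kept in differentiation medium with beta-estradiol for 6, 12 or 24 h, and ER-MyoD wt was also taken at 0 h, which gave 10 groups of 3 arrays. No ER-MyoD RRR array at 0 h was analysed here, so a difference that the cell populations had before the medium was changed and one that arose afterwards cannot be told apart. The labels do not say whether the 3 arrays of a group were separate cultures or separate transductions. The p-values therefore measure the spread between these samples alone, and that spread may be technical. They name neither the promoter that drives the fusions nor whether cells were clones or pools.

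MyoD is a basic helix-loop-helix transcription factor that binds E-box sequences together with E proteins and can turn fibroblasts into skeletal muscle cells. The acetyltransferases encoded by Ep300 and Kat2b act with MyoD at muscle genes and acetylate it on lysines beside its DNA-binding region, and arginine at these positions keeps the positive charge but cannot be acetylated. A MyoD fused to the hormone-binding domain is held inactive until estradiol is added, so the early hours can include the first responses to it. The 6 h comparison asks which genes differ between the 2 fusions at this early time. It does not by itself select genes that responded to MyoD.

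The values are deposited probe set intensities, called signals below, which the authors had scaled so that the trimmed mean of each array was 150. Tests were made on quantile-normalised log2(signal + 16), a scale that understates the change of genes with low signal. Of the 6 arrays compared, 1 stood apart before any gene was tested. The ratio of the 3' to the 5' control probe sets, which rises as RNA breaks down, was 2.44 for Gapdh in ER-MyoD RRR replicate 2 at 6 h, against 0.815 to 1.40 in the other 29 arrays. For Actb it was 3.61 against 1.07 to 2.07. Its correlation with the other ER-MyoD RRR arrays at 6 h was 0.926 to 0.928, while those correlated with each other at 0.956 and the ER-MyoD wt arrays at 0.948 to 0.956. Of the arrays at other times, replicate 1 of the empty retrovirus at 12 h (0.932 to 0.941) and replicate 3 of ER-MyoD wt at 24 h (0.933 to 0.946) also had low correlations with their own groups. The part of RNA quality in the results was not tested. A call that was lost without this array is stated for each gene given with its values.

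The signal of Myod1 itself was measured first. It was 1125, 753 and 814 in ER-MyoD wt, 1155, 310.4 and 1125 in ER-MyoD RRR and 153, 145 and 204 with the empty retrovirus, each group in the order of replicates 1, 2 and 3. Both fusions lay above the control on every array, and the lowest value of ER-MyoD RRR was the array with the high 3' to 5' ratios. The difference between the fusions did not pass (log2 difference -0.22 ± 0.35, adjusted p = 0.827). Without replicate 2 it was 0.34 (adjusted p = 0.682). Myf5, the other deleted myogenic factor, had signals of 479, 355 and 534 in ER-MyoD wt and 432, 393 and 501 in the control, but only 213, 204 and 185 in ER-MyoD RRR (-1.0 ± 0.28, adjusted p = 0.0443). It did not pass without any 1 replicate of ER-MyoD RRR or replicate 1 or 3 of ER-MyoD wt (adjusted p = 0.0698 to 0.163) or under median centring (0.0780). Where its probe set lies relative to the deleted part of the gene is not known, and neither gene was taken as a check of the deletions.

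At an adjusted p under 0.05 in the limma fit over all 30 arrays, 369 genes had a lower signal with ER-MyoD RRR (2.03% of those tested) and 296 a higher one (1.63%), 665 in all (3.66%). The median log2 difference was -0.75 among the lower genes and 0.64 among the higher genes, against 0.05 over all genes. At least a 2-fold difference was reached by 90 of the lower and 43 of the higher genes, and at least 4-fold by 5 and 0. Several probe sets were present for 282 of the lower genes, all below 0 in 188, and more than 1 passed in 56. For the higher genes these numbers were 154, 98 (all above 0) and 8. With the mean of a gene's probe sets 290 genes were lower and 225 higher. That setting kept 53.1% of the lower and 58.1% of the higher calls. The ER-MyoD RRR arrays did not overlap the ER-MyoD wt arrays for 356 of the lower and 293 of the higher genes, while such a gap was seen in 3659 of all genes (20.1%), 1465 in the lower direction (8.05%) and 2194 in the higher direction (12.1%). Under median centring in place of quantile normalisation 199 were lower and 55 higher, so the share of lower genes among those called was 78.3% in place of 55.5%. Counts also moved with single arrays. Among the wild-type arrays, leaving out replicate 1 gave 166 lower and 115 higher, replicate 2 gave 308 and 187, and replicate 3 gave 204 and 149. Among the mutant arrays, leaving out replicate 3 gave 231 and 150, and the array of high 3' to 5' ratios 502 and 226. With the spread taken from the 6 arrays alone, 77 were lower and 31 higher. The rule for named genes gave 111 genes past the threshold. Of these, 54 passed with any single one of the 6 arrays left out, 63 under median centring, 43 in the fit of 6 arrays and 36 in all of these. The 36 included Prune2, Wnt4, Mycl, Mymk, Actg2, Tnnt2, Tnnc1, Fhl1, Zbtb18, Hsd17b7, Idi1, Hmgcs1, Igfbp5, Igf1, Postn, Lox and Timp3 among the lower genes, and Mmp3, Mmp10, Twist2, Id3, Ccl2, Ccl7, Hoxb5 and Gtf3c5 among the higher. The fit of 6 arrays is not repeated at each gene below. Those that did not pass it included Acta1 (adjusted p = 0.232), Cyp51 (0.0949), Rb1 (0.0879), C1qtnf3 (0.0759) and Dnajc3 (0.0725). Others were S100a8 (0.0667), Tnnt1 (0.0636), Mef2a (0.0615), Sqle (0.0595) and Gadd45a (0.0559).

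**Figure D1:**
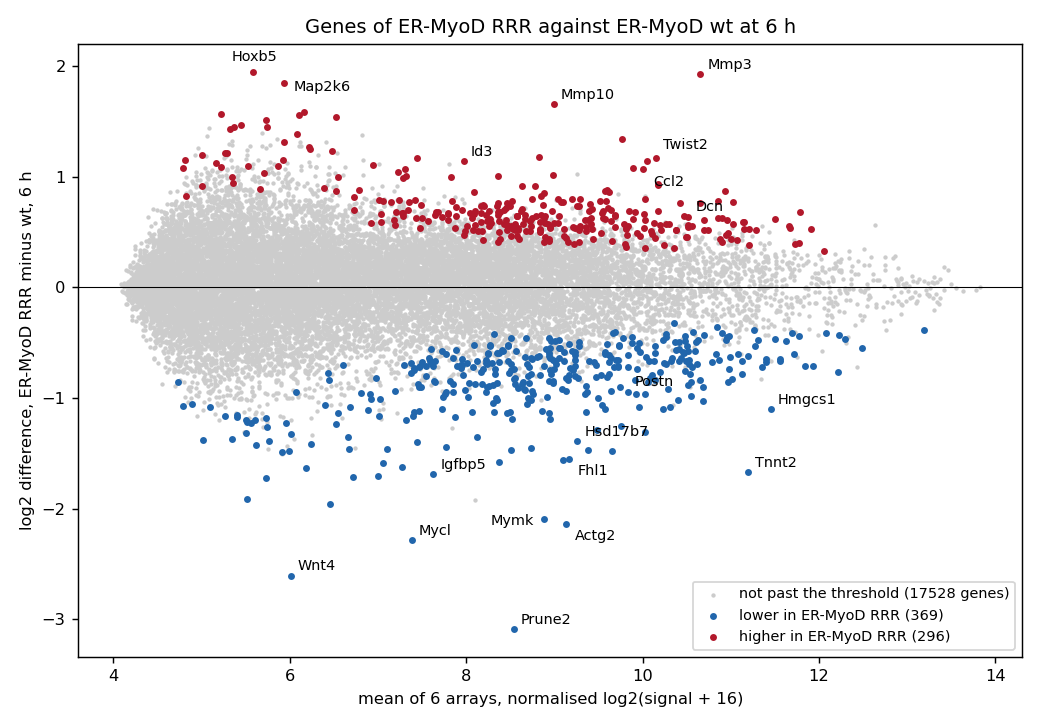
Each point is 1 of 18193 genes, with the mean of the 6 arrays at 6 h on the horizontal axis (normalised log2 of signal plus 16) and the log2 difference of ER-MyoD RRR minus ER-MyoD wt on the vertical axis. Blue points (369) were lower and red points (296) higher at an adjusted p under 0.05; Prune2 at -3.09 and Hoxb5 at 1.95 are the extremes.

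Among the genes that fell furthest, several had low signals in the control. Prune2, which encodes a BCH domain protein, had signals of 682, 1594 and 1298 in ER-MyoD wt, 121, 64.3 and 145 in ER-MyoD RRR and 44.2, 49.2 and 52.3 in the control. Its groups were far apart on every array, with a log2 difference of -3.09 ± 0.35, adjusted p = 3.73e-06. One of its 4 probe sets passed, and the smallest difference among them was -0.55. Wnt4, a secreted Wnt ligand, was at 166, 118 and 129 in ER-MyoD wt and at 14.0, 13.0 and 3.24 in ER-MyoD RRR, which overlaps the control at 3.46, 9.28 and 2.90 (-2.60 ± 0.37, adjusted p = 7.63e-05). Both of its probe sets passed. Mycl, a member of the Myc family of transcription factors, stood between the other groups, at 50.6, 43.6 and 75.7 in ER-MyoD RRR against 388, 332 and 349 in ER-MyoD wt and 6.64, 5.82 and 6.19 in the control (-2.29 ± 0.25, adjusted p = 2.02e-06).

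Further large falls included secreted and guidance proteins. Sema3e, a semaphorin that guides vessels and axons, was at 732, 416 and 603 in ER-MyoD wt and 177, 182 and 133 in ER-MyoD RRR, and all of its 4 probe sets passed (-1.58 ± 0.28, adjusted p = 0.00103). Its signals in ER-MyoD RRR reached into or lay below the range of the control, 254, 196 and 180.4. C1qtnf3, a secreted C1q-related protein, fell (-1.63 ± 0.32), and so did Myl9, the regulatory light chain of smooth and non-muscle myosin (-1.62 ± 0.28), from signals of 267, 240.2 and 247 to 76.3, 53.6 and 72.1. Mss51, a mitochondrial protein gene of muscle, was at 62.3, 61.4 and 75.8 in ER-MyoD wt, 5.06, 9.30 and 7.26 in ER-MyoD RRR and 74.7, 14.9 and 55.2 in the control (-1.91 ± 0.34, adjusted p = 0.00133). Here ER-MyoD RRR was below the control as well. Ece1, the endothelin-converting enzyme (-1.96 ± 0.42), Olfm1, a secreted olfactomedin (-1.72 ± 0.40), and Fbxo32, a muscle ubiquitin ligase subunit (-1.48 ± 0.32), were lower with less support. Ece1 did not pass without replicate 1 of ER-MyoD wt (adjusted p = 0.0622), Olfm1 not without replicate 3 of ER-MyoD RRR or replicate 1 or 3 of ER-MyoD wt (adjusted p = 0.0525 to 0.119), and Fbxo32 not without replicate 1 of ER-MyoD RRR (adjusted p = 0.0583). Map1b, a microtubule-binding protein, was called at -1.59, but not without replicate 2 or 3 of ER-MyoD RRR or any 1 replicate of ER-MyoD wt (adjusted p = 0.0658 to 0.208) or under median centring (0.0563). The probe set annotated to Mir133b, the gene of a muscle microRNA, had 96.9, 90.3 and 62.6 against 30.5, 6.57 and 29.5 (-1.48 ± 0.33, adjusted p = 0.00913). It did not pass without replicate 2 of ER-MyoD RRR or replicate 1 of ER-MyoD wt (adjusted p = 0.0650 and 0.0603). Such an array does not measure the short mature form.

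Of 20 measured genes of the thin filament, the actin cable of the sarcomere, 5 were lower (25%) and 0 higher. Their median log2 difference was -0.33 against 0.05 over all genes. List counts here and below stand against 2.03% lower and 1.63% higher over all genes. In lists this short 1 gene alone makes several percent. Tnnt2, the troponin T of embryonic and cardiac muscle, had signals of 4072, 4384 and 4554 in ER-MyoD wt, 1244, 1509 and 1411 in ER-MyoD RRR and 38.8, 11.3 and 37.2 in the control. The fusions did not overlap, and both lay far above the control. The difference between them was -1.67 ± 0.23, adjusted p = 6.65e-05, and 2 of its 3 probe sets passed, with all 3 below 0. Tnnc1, the calcium-binding troponin C of slow muscle and heart, was at 515, 571 and 575 against 214, 228 and 206, with the control at 73.4, 112 and 119.7 (-1.19 ± 0.15, adjusted p = 1.76e-05). Its ER-MyoD RRR arrays differed by little, the array with the high 3' to 5' ratios included. Tnnt1, the slow skeletal troponin T, fell (-1.38 ± 0.27) from low signals, 20.9, 34.9 and 45.8 in ER-MyoD wt, to 3.79, 3.17 and 4.43, the level of the control at 6.13, 8.79 and 3.59. Tropomyosin Tpm1 was at 3801, 3673 and 3079 against 2511, 1514 and 2756 (-0.72 ± 0.16, adjusted p = 0.00739) and did not pass without replicate 1 of ER-MyoD wt (adjusted p = 0.0532) or under median centring (0.120). The skeletal actin Acta1 was at 229, 219 and 184 in ER-MyoD wt and at 90.1, 7.16 and 109.5 in ER-MyoD RRR (-1.71 ± 0.38, adjusted p = 0.00890). Its lowest value by far was replicate 2, and without that array the difference was -0.90 (adjusted p = 0.0312). The embryonic actin Actc1 was at 340.3, 323 and 367 against 132, 148 and 219 and did not pass (-0.91 ± 0.28, adjusted p = 0.0711). The thin filament count was 4 under median centring and 2 in the fit of 6 arrays.

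The upstream regions of Tnnt2 and of Chrng, the fetal subunit of the acetylcholine receptor, are printed because each held several E-boxes, the sequence that MyoD binds. The 250 bases before the start are given, from RefSeq's table for GRCm38.p6, for Tnnt2 at chr1:135836084-135836333, + strand (the first of its 2 windows) and for Chrng at chr1:87205561-87205810, + strand. Capitals mark each match to CANNTG, whose letters read alike on both strands.
Tnnt2: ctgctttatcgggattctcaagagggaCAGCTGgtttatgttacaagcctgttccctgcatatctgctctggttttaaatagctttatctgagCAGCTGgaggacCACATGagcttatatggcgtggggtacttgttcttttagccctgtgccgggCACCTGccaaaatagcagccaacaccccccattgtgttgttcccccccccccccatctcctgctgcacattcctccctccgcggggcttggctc
Chrng: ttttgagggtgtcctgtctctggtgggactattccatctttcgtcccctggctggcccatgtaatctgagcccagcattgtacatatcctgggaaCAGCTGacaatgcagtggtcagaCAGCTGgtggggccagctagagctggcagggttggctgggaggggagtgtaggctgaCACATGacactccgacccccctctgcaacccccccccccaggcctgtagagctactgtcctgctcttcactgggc
Of 14367 tested genes with such a window, 65.1% held CANNTG, as did 61.4% of the 293 lower and 62.7% of the 236 higher genes that had one. For CAGCTG, the core that MyoD prefers, the shares were 14.9%, 15.4% and 13.6%. For CAGGTG, read on both strands, they were 19.9%, 17.4% and 15.3%. Each of these forms is also a match to CANNTG. Here and below a gene was counted where any of its windows held the motif. Windows per gene averaged 1.37 in the lower genes, 1.29 in the higher genes and 1.25 over all genes. A match describes letters in the window and is not a binding site, and enhancers outside it were not read.

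The thick filament and M-band, whose myosins appear later in muscle differentiation, had 0 lower and 0 higher among 21 genes in the limma fit (median -0.08), and 0 and 1 at an unadjusted p under 0.05, which 7.57% of all genes passed as lower and 8.95% as higher. Calcium handling genes had 0 and 0 among 20 (median -0.16), and 1 and 2 at an unadjusted p, which is close to the same shares. Of 24 genes of the Z-disc and its LIM proteins 2 were lower (8.33%) and 1 higher (4.17%), against 2.03% and 1.63% of all genes. Fhl1, a LIM-only protein of muscle, fell from 918, 1131 and 1012 to 293, 355 and 295, with the control at 173, 194 and 233 (-1.55 ± 0.15, adjusted p = 4.26e-07). Ankrd2, a stretch-responsive ankyrin repeat protein, fell (-1.72 ± 0.38) from signals of 75.0, 84.8 and 59.1 to 4.76, 26.9 and 9.80. Its control arrays, 5.66, 43.0 and 70.2, spanned both groups, and it did not pass without replicate 1 of ER-MyoD RRR (adjusted p = 0.0528). Csrp2, a LIM protein of smooth muscle, was higher at 722, 912 and 859 against 458, 445 and 531 (0.74 ± 0.14, adjusted p = 0.00302) and overlapped the control at 614, 702 and 840.4; under median centring its adjusted p was 0.0517. Eno3, the muscle enolase, was the 1 gene of 17 in muscle energy metabolism to pass, at 602, 598 and 489 against 268, 229 and 321 (-0.93 ± 0.15, adjusted p = 0.000385). Of 7 small heat shock genes 1 was lower, Cryab (-0.90 ± 0.24, adjusted p = 0.0356), but not without replicate 1 or 2 of ER-MyoD RRR or any 1 replicate of ER-MyoD wt (adjusted p = 0.0508 to 0.147).

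Of the smooth muscle contractile apparatus, several genes of which muscle precursors also express, 17 were measured. Of these 5 were lower (29.4%, against 2.03% of all genes) and 0 higher with ER-MyoD RRR (median -0.20). Actg2, the enteric smooth muscle actin, was at 1234, 1262 and 1185 in ER-MyoD wt, 288, 177 and 275 in ER-MyoD RRR and 12.7, 28.3 and 9.68 in the control (-2.13 ± 0.27, adjusted p = 1.76e-05). No array of ER-MyoD RRR came near those of ER-MyoD wt or of the control. Lmod1, a leiomodin that seeds actin filaments, fell (-1.39 ± 0.30) and did not pass without replicate 3 of ER-MyoD wt (adjusted p = 0.0519). Tagln, the actin-bundling transgelin, was at 6773, 6389 and 5501 against 4198, 2772 and 5403 (-0.76 ± 0.17, adjusted p = 0.00739), and without replicate 2 of ER-MyoD RRR it was -0.49. It did not pass without replicate 2 of ER-MyoD RRR or replicate 1 of ER-MyoD wt (adjusted p = 0.0517 and 0.0570) or under median centring (0.122). Caldesmon Cald1 and the smooth muscle actin Acta2 had small differences of -0.41 and -0.39. Cald1 did not pass without replicate 1 or 3 of ER-MyoD RRR or replicate 3 of ER-MyoD wt (adjusted p = 0.0528 to 0.102) or under median centring (0.329). Acta2 did not pass with any of the 6 arrays left out (highest adjusted p = 0.112), nor under median centring (0.631). The count of 5 was 2 under median centring, 1 in the fit of 6 arrays, 3 without any 1 mutant array or wild-type replicate 1, and 2 without wild-type replicate 3.

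Muscle and smooth muscle promoters often hold a CArG box, the sequence bound by serum response factor, and Prune2 and Fhl1 are printed because theirs held one. The CArG box was found in 16 of the 293 lower genes with a window (5.46%), in 5 of the 236 higher genes (2.12%) and in 207 of all 14367 (1.44%). The genes were chosen by their 6 h difference, so these shares are a description. The lower genes also had more windows per gene than all genes (1.37 against 1.25 on average), which gives more places for a match. The CArG box was read on both strands. The windows of 250 bases from RefSeq's GRCm38.p6 table lie at chr19:16955868-16956117, + strand, for Prune2 and at chrX:56779433-56779682, + strand, for Fhl1 (the first of its 2 windows), and capitals mark the CArG box.
Prune2: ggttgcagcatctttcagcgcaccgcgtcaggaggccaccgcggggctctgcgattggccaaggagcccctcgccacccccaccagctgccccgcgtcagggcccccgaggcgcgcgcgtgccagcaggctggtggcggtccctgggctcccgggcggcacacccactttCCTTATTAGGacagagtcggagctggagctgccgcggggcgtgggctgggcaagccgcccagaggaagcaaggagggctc
Fhl1: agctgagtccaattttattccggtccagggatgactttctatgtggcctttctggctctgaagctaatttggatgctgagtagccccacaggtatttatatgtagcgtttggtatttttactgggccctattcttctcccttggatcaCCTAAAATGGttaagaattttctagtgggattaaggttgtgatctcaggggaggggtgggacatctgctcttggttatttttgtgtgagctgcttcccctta
The gene for serum response factor, Srf, had a difference of 0.07 that did not pass (adjusted p = 0.877).

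Fusion and cell adhesion genes held 4 lower and 1 higher among 29 (median -0.16), or 13.8% and 3.45% against 2.03% and 1.63% of all genes. Mymk, the membrane protein that joins myoblasts, was at 1059, 1000.3 and 972 in ER-MyoD wt, 152, 163 and 330.3 in ER-MyoD RRR and 8.66, 3.89 and 10.7 in the control (-2.10 ± 0.26, adjusted p = 1.53e-05). The groups were apart on every array, and ER-MyoD RRR still lay well above the control. Megf10, a receptor of muscle precursor cells, was at 922, 948 and 1054 against 286, 387 and 238 (-1.56 ± 0.25, adjusted p = 0.000343). Cdh15, the muscle cadherin, was at 813, 929.6 and 581 against 359, 245 and 317 (-1.19 ± 0.17, adjusted p = 6.46e-05), and Cdh11, a mesenchymal cadherin, at 1977, 1479 and 1965 against 1226, 1104 and 1072 (-0.67 ± 0.14, adjusted p = 0.00602). Under median centring the adjusted p of Cdh11 was 0.0910. Mymx, the partner of Mymk, was listed at a difference of -0.02 (adjusted p = 0.987). Vcam1, an adhesion receptor, was higher at 1194, 1292 and 1202 against 869, 848 and 903 (0.46 ± 0.12, adjusted p = 0.0281). It did not pass with any 1 of the 6 arrays left out (highest adjusted p = 0.0996), nor under median centring (0.202).

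At the neuromuscular synapse 2 of 13 genes were lower (15.4%, against 2.03% of all genes) and 0 higher, with a median of -0.47. Chrng was at 76.5, 77.2 and 14.1 in ER-MyoD wt against 11.2, 22.5 and 7.42 in ER-MyoD RRR (-1.20 ± 0.28, adjusted p = 0.0137). One ER-MyoD wt array overlapped the ER-MyoD RRR arrays, and Chrng did not pass without replicate 3 of ER-MyoD RRR or replicate 1 or 2 of ER-MyoD wt (adjusted p = 0.0767 to 0.129). Lrp4, the agrin receptor that acts with Musk, was at 142, 197 and 202 against 81.1, 77.2 and 89.4 (-0.94 ± 0.25, adjusted p = 0.0281). It did not pass without any 1 replicate of ER-MyoD RRR or replicate 2 or 3 of ER-MyoD wt (adjusted p = 0.0517 to 0.109). Of 16 genes of the dystrophin complex and costamere, vinculin Vcl alone passed (6.25% lower, against 2.03% of all genes). It was at 3363, 3916 and 3225 against 2320.3, 2404 and 2213 (-0.65 ± 0.13, adjusted p = 0.00288). Under median centring its adjusted p was 0.213.

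**Figure D2:**
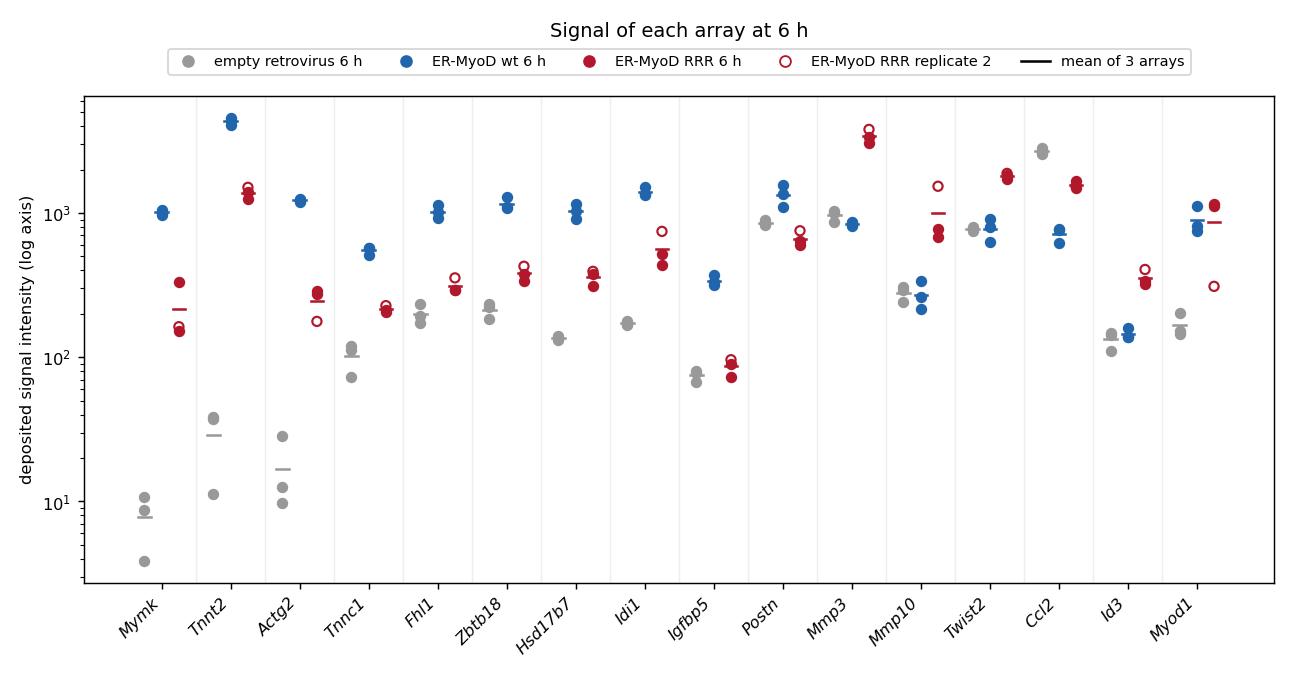
Deposited signal intensity (log axis) of 16 genes on each of the 9 arrays at 6 h: empty retrovirus in grey, ER-MyoD wt in blue, ER-MyoD RRR in red, with an open red circle for ER-MyoD RRR replicate 2 and a line at the mean of 3 arrays. ER-MyoD RRR lies between the control and ER-MyoD wt for Mymk, Tnnt2, Actg2 and Idi1, and above both for Mmp3, Mmp10, Twist2 and Id3.

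Among 22 measured myogenic factors 3 were lower (13.6%, against 2.03% of all genes) and 0 higher (median -0.23). Zbtb18, a zinc finger repressor that promotes muscle differentiation, was at 1292, 1104 and 1079 in ER-MyoD wt, 380.4, 428 and 339 in ER-MyoD RRR and 183, 235 and 224 in the control (-1.47 ± 0.15, adjusted p = 1.04e-06). Mef2a, which acts with MyoD on muscle promoters, was at 1577, 859 and 1178 against 626, 324 and 425 (-1.29 ± 0.25, adjusted p = 0.00330), and 4 of its 6 probe sets passed. Its control arrays, 359.6, 397 and 236, overlapped those of ER-MyoD RRR. Myf5, a gene deleted in these cells, was the third, with the limits given above. The count of 3 was 2 under median centring, 2 in the fit of 6 arrays and 4 without replicate 2 of ER-MyoD RRR. Myog, the factor that follows MyoD, had low signals in every group at 6 h, 37.2, 25.5 and 10.5 in ER-MyoD wt and 9.07, 7.66 and 11.7 in ER-MyoD RRR, and did not pass (-0.66 ± 0.22, adjusted p = 0.103). Hes6 (-0.50, adjusted p = 0.0887), Mef2c (0.17, 0.771) and Tcf12, an E protein (-0.34, 0.173), did not pass either.

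Of 13 genes that hold MyoD back, 2 were higher (15.4%, against 1.63% of all genes) and 1 lower (7.69%, against 2.03%). Twist2, a helix-loop-helix protein that competes for E proteins, was at 632, 906 and 806 in ER-MyoD wt, 1729.7, 1885 and 1832 in ER-MyoD RRR and 752, 801 and 778 in the control (1.17 ± 0.15, adjusted p = 1.82e-05). Id3, which lacks a DNA-binding region and captures E proteins, was at 161, 139 and 138, 323, 406 and 336 and 111, 143 and 148 in the same groups (1.14 ± 0.19, adjusted p = 0.000633). For both genes the mutant arrays were the 3 highest, and the other groups overlapped each other. Id1 (0.40, adjusted p = 0.345) and Id2 (-0.07, 0.960) did not pass. Zeb1, a repressor that binds E-boxes of muscle genes, was lower (-0.45 ± 0.11) and did not pass without replicate 1 of ER-MyoD RRR or replicate 1 or 2 of ER-MyoD wt (adjusted p = 0.0537 to 0.131) or under median centring (0.0837). In the Notch pathway, which restrains myogenesis, 1 of 22 genes passed, as lower (4.55%, against 2.03% of all genes). It was the ligand Dll1, at 1072, 892 and 872 against 515, 398 and 478, with the control at 107, 84.9 and 109 (-0.94 ± 0.14, adjusted p = 0.000183).

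The enzymes that place or remove acetyl and methyl groups had 0 lower and 0 higher among 20 in the limma fit, and 4 and 1 at an unadjusted p under 0.05, where all genes had 7.57% and 8.95%. Ep300 was at -0.10 (adjusted p = 0.908), Kat2b at -0.29 (0.477) and Hdac1 at 0.11 (0.712). The largest difference was that of Hdac9, a deacetylase that binds Mef2 proteins, at -1.15 (0.0663). Among 14 SWI/SNF remodelling subunits 1 was lower, Arid1b (-0.70 ± 0.19, adjusted p = 0.0380), but not without replicate 1 or 3 of ER-MyoD RRR or replicate 2 or 3 of ER-MyoD wt (adjusted p = 0.0682 to 0.206). Of 16 genes of the p38 pathway, which drives muscle gene transcription, 2 were lower (12.5%) and 1 higher (6.25%), against 2.03% and 1.63% of all. Gadd45a and Gadd45b, stress sensors that can activate this pathway, were lower (-0.95 ± 0.17 and -1.06 ± 0.25), the latter from 1116, 1157 and 1070.4 to 506, 324 and 758. Gadd45b did not pass without replicate 2 of ER-MyoD RRR or replicate 1 or 2 of ER-MyoD wt (adjusted p = 0.0508 to 0.0840). Map2k6, the kinase that activates p38 proteins, was higher at 75.5, 115 and 85.5 against 16.8, 14.9 and 12.7 (1.84 ± 0.34, adjusted p = 0.00156), with the control higher still at 168, 248 and 161.

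The sterol pathway held the largest share of lower genes of any list, 11 of 21 measured members (52.4%, against 2.03% of all genes). In this list 0 were higher and the median was -0.62. Of the 21, 20 lay below 0. Hsd17b7, which acts in the late steps of cholesterol synthesis, was at 911, 1155 and 1034 in ER-MyoD wt, 377, 394 and 309.7 in ER-MyoD RRR and 132, 141 and 135 in the control (-1.39 ± 0.14, adjusted p = 4.26e-07). Idi1, the isomerase that makes the building block of isoprenoids, was at 1519, 1347 and 1329.9 against 518, 747 and 438, with the control at 168, 170.0 and 177 (-1.25 ± 0.16, adjusted p = 2.5e-05). For both genes the 3 groups did not overlap and ER-MyoD RRR was in the middle. Hmgcs1, at the start of the pathway, was at 4516, 4084 and 4330.3 against 1708, 2857 and 1765 (-1.10 ± 0.16, adjusted p = 9.29e-05), and 4 of its 5 probe sets passed. Its highest ER-MyoD RRR value was replicate 2, and without that array the difference was -1.32.

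Other members of the list had smaller differences. Lss, which closes the sterol rings, was lower (-0.93 ± 0.13, adjusted p = 4.81e-05), as were squalene epoxidase Sqle (-0.75 ± 0.13, adjusted p = 0.00115) and the demethylase Cyp51 (-0.67 ± 0.13, adjusted p = 0.00244). Outside the 6 members with the smallest p, Mvd (-0.88), the sterol sensor partner Insig1 (-0.79), Nsdhl (-0.62), Fdft1 (-0.57) and the sterol carrier Stard4 (-0.53) also passed. Nsdhl passed without any 1 of the 6 arrays. Mvd did not pass with any of them left out (adjusted p = 0.0587 to 0.0951) or under median centring (0.0531). Fdft1 did not pass without the mutant replicate 2 or the wild-type replicate 1 or 2 (adjusted p = 0.0644 to 0.124) or under median centring (0.111). Insig1 did not pass without the mutant replicate 1 or 3 or the wild-type replicate 1 or 3 (adjusted p = 0.0521 to 0.0872). Stard4 did not pass without the wild-type replicate 1 (adjusted p = 0.0669) or under median centring (0.112). The transcription factor of the pathway, Srebf2, was at 953, 927 and 764 against 636, 529 and 891 and did not pass (-0.36 ± 0.16, adjusted p = 0.249). Nor did Srebf1 (0.41, adjusted p = 0.0950). The count of 11 was 7 without ER-MyoD wt replicate 1, 8 under median centring and 6 in the fit of 6 arrays. Among 11 fatty acid genes 1 was lower, the desaturase Scd2, at 4163, 5328 and 3609 against 3223, 2420.2 and 3214 (-0.60 ± 0.13, adjusted p = 0.00556), with an adjusted p of 0.137 under median centring.

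**Figure D3:**
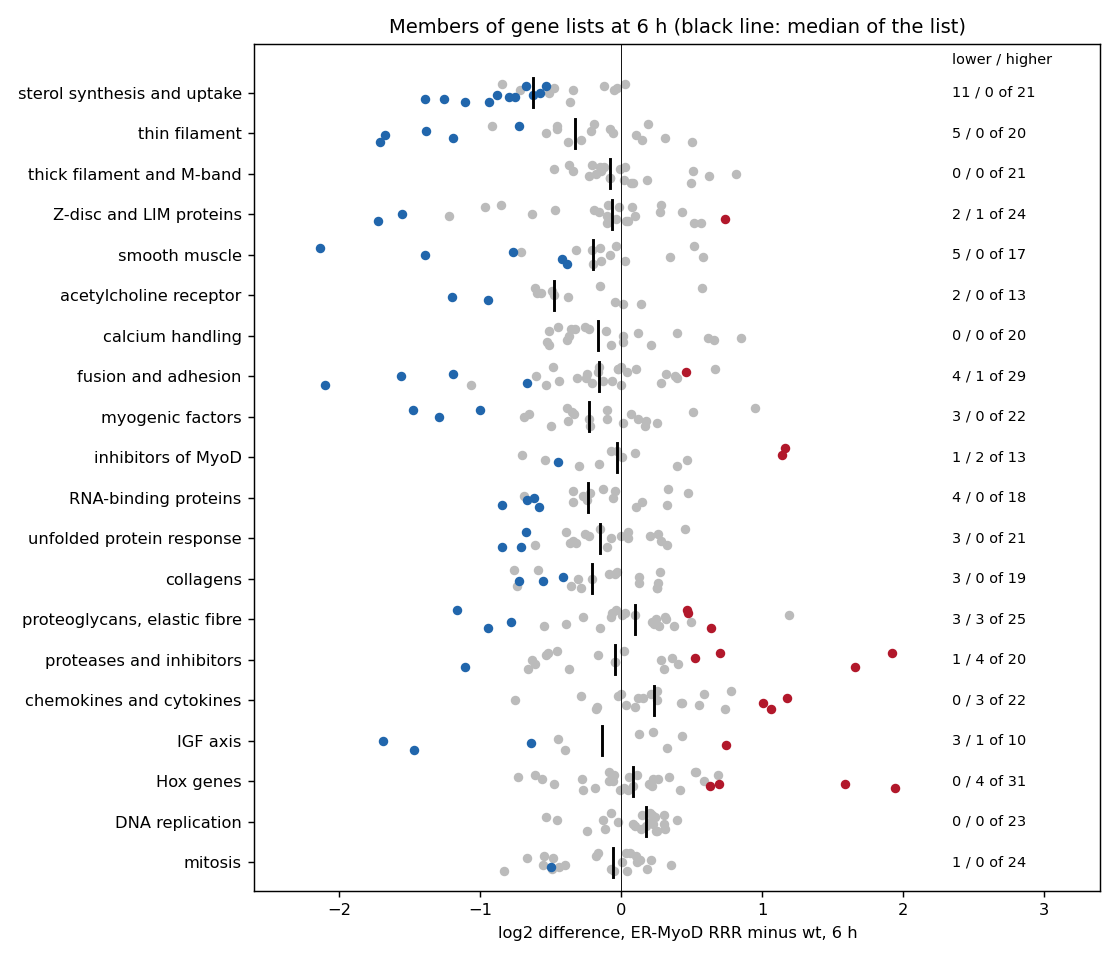
Each point is a measured member of a gene list, placed by its log2 difference of ER-MyoD RRR minus ER-MyoD wt at 6 h; blue members were lower and red members higher at an adjusted p under 0.05, and a black bar marks the median. The sterol list has the lowest median (-0.62), and the thick filament, calcium handling and DNA replication lists hold no called member.

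RNA-binding proteins that set muscle splicing and mRNA stability held 4 lower (22.2%, against 2.03% of all genes) and 0 higher among 18 (median -0.23). Celf2 was at 1218, 1475 and 1358 against 631, 834 and 727 (-0.84 ± 0.14, adjusted p = 0.000533) and Celf1 at 3125, 2508 and 3086 against 2280.1, 1799 and 1648 (-0.67 ± 0.12, adjusted p = 0.00184). Under median centring the adjusted p of Celf1 was 0.142. In neither did an array of ER-MyoD RRR reach those of ER-MyoD wt. Zfp36l1, which speeds mRNA decay, was at -0.62 and did not pass without replicate 2 of ER-MyoD RRR or replicate 2 of ER-MyoD wt (adjusted p = 0.0577 and 0.0571) or under median centring (0.0837). Mbnl1, the muscleblind splicing factor, was at -0.58 and did not pass without replicate 3 of ER-MyoD RRR or replicate 1 or 2 of ER-MyoD wt (adjusted p = 0.0517 to 0.136) or under median centring (0.141); its 3 probe sets ranged from -0.58 to 0.37, and their mean gave 0.02 (adjusted p = 0.984). The count of 4 was 1 under median centring and 2 without ER-MyoD wt replicate 2.

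Muscle differentiation requires cells to leave the cycle, and of 14 genes of cell cycle exit 2 were lower (14.3%, against 2.03% of all). Rb1, the retinoblastoma protein, was at 909, 603 and 741 in ER-MyoD wt, 296, 460.4 and 215 in ER-MyoD RRR and 144, 149.8 and 125 in the control (-1.14 ± 0.23, adjusted p = 0.00347). Its highest ER-MyoD RRR value was replicate 2, without which the difference was -1.41; 1 of its 2 probe sets passed and the other was at -0.06. Cyclin D1, Ccnd1, was lower (-0.43 ± 0.11) and did not pass without replicate 2 of ER-MyoD RRR or replicate 2 or 3 of ER-MyoD wt (adjusted p = 0.0603 to 0.131) or under median centring (0.315). Cdkn1a, the p21 inhibitor, did not pass (-0.43 ± 0.17, adjusted p = 0.167). Of 12 p53 targets Ccng1 was lower (-0.85) and Plk2 higher (0.80), each 8.33% of the list, against 2.03% and 1.63% of all genes. Ccng1 did not pass without replicate 3 of ER-MyoD RRR or replicate 1 of ER-MyoD wt (adjusted p = 0.137 and 0.120) or under median centring (0.173), and Plk2 not without replicate 1 or 3 of ER-MyoD RRR or replicate 2 or 3 of ER-MyoD wt (adjusted p = 0.0692 to 0.112) or under median centring (0.0979). DNA replication genes had 0 lower and 0 higher among 23 (median 0.18), and 2 and 2 at an unadjusted p under 0.05, against 7.57% and 8.95% of all genes. Among 24 mitosis genes 1 passed (4.17% lower, against 2.03% of all genes), Top2a at -0.50, whose groups overlapped. The count was 4 without the mutant replicate 2, 2 without the wild-type replicate 2 and 0 without any of the other 4 arrays.

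In the unfolded protein response 3 of 21 genes were lower (14.3%, against 2.03% of all genes) and 0 higher. Dnajc3, a co-chaperone of the endoplasmic reticulum, was at 748, 533 and 720.5 in ER-MyoD wt and 386, 381 and 276 in ER-MyoD RRR, below the control at 615, 566 and 489.7 (-0.85 ± 0.15, adjusted p = 0.00156). The chaperones Hsp90b1 and Hspa5 were at -0.67 and -0.71. Hspa5 did not pass without replicate 1 of ER-MyoD wt (adjusted p = 0.0755) or under median centring (0.0689), nor Hsp90b1 without replicate 1 or 3 of ER-MyoD RRR or replicate 1 of ER-MyoD wt (adjusted p = 0.0552 to 0.0826) or under median centring (0.193). The count was 1 under median centring or without ER-MyoD wt replicate 1.

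Genes of the extracellular matrix moved in both directions. Of 19 collagens 3 were lower (15.8%, against 2.03% of all genes) and 0 higher. The lower ones were Col4a1 (-0.55), Col8a1 (-0.72) and Col3a1 (-0.41). Col4a1 did not pass without replicate 2 of ER-MyoD wt (adjusted p = 0.0545) or under median centring (0.274), Col8a1 not without replicate 3 of ER-MyoD RRR or replicate 1 or 3 of ER-MyoD wt (adjusted p = 0.0669 to 0.0879) or under median centring (0.0954), and Col3a1 not without replicate 1 or 3 of ER-MyoD RRR or any 1 replicate of ER-MyoD wt (adjusted p = 0.0513 to 0.200) or under median centring (0.484). The count was 0 under median centring and 1 without the mutant replicate 3 or any 1 wild-type array. Of 25 proteoglycan and elastic fibre genes 3 were lower and 3 higher, each 12% of the list, against 2.03% and 1.63% of all genes. Periostin, Postn, an adhesion protein of matrix under repair, was at 1569.8, 1095 and 1352 in ER-MyoD wt, 636, 754 and 604 in ER-MyoD RRR and 893, 841 and 822 in the control (-0.94 ± 0.12, adjusted p = 2.5e-05). The collagen cross-linking enzyme Lox was at 2060.0, 1942 and 2024 against 1061, 1256 and 1249 (-0.78 ± 0.13, adjusted p = 0.000738), and 2 of its 3 probe sets passed. Asporin, Aspn, a small proteoglycan, was at 246, 192 and 267 against 106, 81.9 and 79.9 (-1.16 ± 0.21, adjusted p = 0.00170). For these genes ER-MyoD RRR did not overlap ER-MyoD wt, and for Postn it lay below the control too. Decorin, Dcn, a proteoglycan of fibroblasts, was higher at 1981, 1840.4 and 2059.6 against 1257, 1086 and 1359 (0.64 ± 0.13, adjusted p = 0.00329), with the control far above both at 4662, 4158 and 5476 and an adjusted p of 0.150 under median centring. Tenascin C, Tnc (0.48), and Loxl3 (0.47) were the other higher genes. Tnc did not pass without replicate 1 or 3 of ER-MyoD RRR or any 1 replicate of ER-MyoD wt (adjusted p = 0.0872 to 0.149) or under median centring (0.322), and Loxl3 not with any 1 of the 6 arrays left out (highest adjusted p = 0.176), nor under median centring (0.110). The 3 higher were 0 under median centring.

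Among 20 matrix proteases and their inhibitors 4 were higher (20%, against 1.63% of all genes) and 1 lower (5%, against 2.03%). Mmp3, the stromelysin that cuts many matrix proteins, was at 874, 809.8 and 854 in ER-MyoD wt, 3085, 3806 and 3345 in ER-MyoD RRR and 999.8, 1029.9 and 869.7 in the control (1.92 ± 0.14, adjusted p = 3.25e-09), the smallest p of the comparison. The 3 ER-MyoD RRR arrays lay close together and above all others. Mmp10, a related stromelysin from a neighbouring gene, was at 216, 261 and 339, 686, 1535 and 779.9 and 242, 308 and 293 in the same groups (1.66 ± 0.24, adjusted p = 0.000108). Its highest value was replicate 2, and without it the difference was 1.33 (adjusted p = 0.00115). Timp1, an inhibitor of these proteases, was at 4562, 5376 and 5370.1 against 3363, 3193 and 3335 (0.53 ± 0.12, adjusted p = 0.01000), with an adjusted p of 0.169 under median centring. The plasminogen activator Plat was at 419, 497 and 362 against 263, 275 and 217 (0.70 ± 0.16, adjusted p = 0.0118) and did not pass without replicate 2 of ER-MyoD RRR or replicate 3 of ER-MyoD wt (adjusted p = 0.0593 and 0.0780) or under median centring (0.102). Timp3, the inhibitor bound to the matrix, was lower at 822, 729.6 and 989 against 1695, 1817 and 2002, with the control at 895, 982 and 1058 (-1.10 ± 0.14, adjusted p = 2.81e-05). The 4 higher were 2 under median centring and 2 in the fit of 6 arrays.

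Mmp3 and Mmp10 rose together, and their upstream regions are printed because each held a match to the AP-1 motif, TGANTCA, bound by Fos and Jun proteins. The windows of 250 bases from RefSeq's GRCm38.p6 table lie at chr9:7445572-7445821, + strand, for Mmp3 and at chr9:7502092-7502341, + strand, for Mmp10. Capitals mark the AP-1 match, and in Mmp10 it overlaps an E-box.
Mmp3: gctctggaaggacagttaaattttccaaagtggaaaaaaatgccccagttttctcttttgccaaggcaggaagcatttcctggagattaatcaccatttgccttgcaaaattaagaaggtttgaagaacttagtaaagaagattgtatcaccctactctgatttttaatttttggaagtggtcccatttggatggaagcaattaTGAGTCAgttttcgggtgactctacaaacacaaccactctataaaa
Mmp10: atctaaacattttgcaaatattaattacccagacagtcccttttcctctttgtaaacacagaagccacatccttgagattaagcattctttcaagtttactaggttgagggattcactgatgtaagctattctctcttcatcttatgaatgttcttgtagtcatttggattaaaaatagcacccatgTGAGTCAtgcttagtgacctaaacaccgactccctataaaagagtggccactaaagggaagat
The motif was found in 958 of all 14367 genes with a window (6.67%), in 17 of the 236 higher genes (7.20%) and in 14 of the 293 lower genes (4.78%). Fos (0.44, adjusted p = 0.593) and Jun (0.43, 0.507) did not pass. Of 28 serum-induced genes 1 was higher, Ier2 (0.74), and 1 lower, Mycl, each 3.57% of the list, against 1.63% and 2.03% of all genes. Ier2 did not pass without replicate 1 or 3 of ER-MyoD RRR or any 1 replicate of ER-MyoD wt (adjusted p = 0.0629 to 0.135) or under median centring (0.0922).

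Chemokines and cytokines held 3 higher (13.6%, against 1.63% of all genes) and 0 lower genes among 22, with a median of 0.23. Ccl2, which draws monocytes, was at 761, 616 and 782 in ER-MyoD wt, 1489, 1539 and 1672 in ER-MyoD RRR and 2621, 2559 and 2843 in the control (1.07 ± 0.11, adjusted p = 1.04e-06). The 3 groups did not overlap and ER-MyoD RRR was in the middle. Ccl7 was at 304, 228 and 329 against 683, 588 and 796 (1.18 ± 0.16, adjusted p = 4.21e-05) and reached the range of the control, 541, 592 and 726. Ccl8 was at 65.5, 101 and 101 against 194, 243 and 162, above the control at 76.5, 119 and 72.7 (1.0 ± 0.25, adjusted p = 0.0199), and did not pass without replicate 2 of ER-MyoD RRR or replicate 1 of ER-MyoD wt (adjusted p = 0.0797 and 0.116). These genes lie near each other on chromosome 11.

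Secreted growth factors and their binding proteins also differed. In the insulin-like growth factor axis, which drives muscle growth, 3 of 10 genes were lower (30%) and 1 higher (10%). Over all genes the shares were 2.03% and 1.63%. Igfbp5, a binding protein made early in myoblast differentiation, was at 316, 334 and 372 in ER-MyoD wt, 73.5, 96.2 and 90.1 in ER-MyoD RRR and 67.2, 80.1 and 78.3 in the control (-1.69 ± 0.16, adjusted p = 4.26e-07). ER-MyoD RRR overlapped the control. Igf1 was at 144, 139.7 and 152 against 46.3, 33.7 and 47.4, with the control at 65.1, 36.5 and 58.3 (-1.46 ± 0.21, adjusted p = 8.49e-05), and 3 of its 4 probe sets passed. The receptor Igf2r was at -0.64 and did not pass without replicate 1 of ER-MyoD RRR or replicate 1 or 3 of ER-MyoD wt (adjusted p = 0.0802 to 0.101) or under median centring (0.122). Igfbp6 was higher at 571, 624 and 612 against 342, 348 and 351 (0.74 ± 0.15, adjusted p = 0.00576), with an adjusted p of 0.0559 under median centring. Dkk2, a secreted Wnt antagonist and the 1 gene of 11 in its list to pass, was at 139.8, 245 and 102 against 57.6, 60.2 and 66.9, with the control at 705, 664 and 617 (1.11 ± 0.25, adjusted p = 0.00983). It did not pass without replicate 2 of ER-MyoD RRR (adjusted p = 0.0698). Tgfb3 was lower (-0.66) and did not pass with any 1 of the 6 arrays left out (highest adjusted p = 0.147), nor under median centring (0.101). Fgf7 was higher (0.61) and did not pass without replicate 2 or 3 of ER-MyoD RRR or replicate 1 or 2 of ER-MyoD wt (adjusted p = 0.0680 to 0.113) or under median centring (0.106). The YAP target list had 0 lower and 0 higher among 15 genes, interferon genes 0 and 0 among 15, estrogen-responsive genes 0 and 0 among 11 and retinoid genes 0 and 0 among 14. At an unadjusted p under 0.05 these lists had 1 and 0, 0 and 2, 0 and 2, and 0 and 2, against 7.57% lower and 8.95% higher of all genes.

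The largest rises were mostly of genes near the lower end of the signal range. Of the 20 largest, 17 had a mean under 50 in ER-MyoD wt, and 13 passed without ER-MyoD RRR replicate 2, 9 under median centring and 6 in the fit of 6 arrays. Of the 20 largest falls, 0 had a mean under 50 in ER-MyoD wt and 8 in ER-MyoD RRR, and 18 passed without replicate 2, 19 under median centring and 13 in the fit of 6 arrays. Hoxb5 had the largest rise, from 5.51, 8.70 and 8.64 in ER-MyoD wt to 62.4, 95.3 and 59.5 in ER-MyoD RRR, with the control at 96.4, 109 and 129.9 (1.95 ± 0.32, adjusted p = 0.000589). The ER-MyoD wt arrays lay far below those of both other groups. Among 31 Hox genes, which mark position along the body, 4 were higher (12.9%, against 1.63% of all genes) and 0 lower. The others were Hoxc9 (1.59), Hoxb4 (0.70) and Hoxd9 (0.63). Hoxc9 did not pass without any 1 replicate of ER-MyoD RRR or replicate 1 or 2 of ER-MyoD wt (adjusted p = 0.0643 to 0.146) or under median centring (0.0715), Hoxb4 not without replicate 2 of ER-MyoD RRR or replicate 1 or 2 of ER-MyoD wt (adjusted p = 0.0511 to 0.0700), and Hoxd9 not without replicate 1 or 3 of ER-MyoD RRR or replicate 1 or 3 of ER-MyoD wt (adjusted p = 0.0774 to 0.140) or under median centring (0.105). The Hox count was 2 under median centring and 1 without ER-MyoD wt replicate 1. S100a8, a calcium-binding protein of inflammation, was at 111, 186 and 103 against 23.2, 39.9 and 41.5 (1.54 ± 0.30, adjusted p = 0.00311). Gtf3c5, a subunit of an RNA polymerase III factor, was an exception with high signals, 1446, 1381 and 1536 against 557, 624 and 464 and 532, 669.9 and 493 in the control (1.34 ± 0.22, adjusted p = 0.000664).

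To ask whether the 6 h difference touched genes that respond to MyoD, genes were chosen on other arrays, ER-MyoD wt against the empty retrovirus at 24 h, at no less than a 2-fold difference past the threshold. These groups are different transduced populations, and the control had no 0 h array. Population differences and effects of MyoD therefore cannot be told apart. ER-MyoD wt cells are in both comparisons, which can link the gene sets. In ER-MyoD wt at 24 h 946 genes were higher than in the control (5.2% of all genes). Of these, 110 were lower in ER-MyoD RRR at 6 h (11.6%, against 2.03% of all genes) and 5 higher (0.529%, against 1.63%). Their median log2 difference at 6 h was -0.17. Of 1231 genes lower in ER-MyoD wt than in the control at 24 h (6.77%), 76 were higher in ER-MyoD RRR at 6 h (6.17%, against 1.63%). In the same set 28 were lower (2.27%), and the median was 0.08. The genes lower in ER-MyoD RRR at 6 h thus held 29.8% from the first set, and the higher genes 25.7% from the second. The 110 were 64 without ER-MyoD wt replicate 1. The 76 were 39 without that array, 48 without the wild-type replicate 3, 49 without the mutant replicate 3 and 17 under median centring.

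The later arrays showed how many of the 6 h calls were made again. A gene that did not pass later need not have lost its difference. The median log2 difference of the genes lower at 6 h was -0.15 at 12 h and -0.19 at 24 h. For the genes higher at 6 h it was 0.20 and 0.25, against 0.01 and 0.003 over all genes. Of the 369 genes lower at 6 h, 61 were also lower at 12 h, which is 16.5% of them and 38.1% of the 160 lower at 12 h (0.879% of all genes). At 24 h 52 were lower, 14.1% of both lists, where 2.03% of all genes were. Of the 296 higher, 46 were higher at 12 h (15.5%, and 28.9% of 159, against 0.874% of all genes), and 82 at 24 h (27.7%, and 13.5% of 608, against 3.34%). At all 3 times 27 genes were lower and 33 higher, while 267 and 194 passed at 6 h and in neither direction at 12 or 24 h. In the opposite direction at 12 or 24 h, 17 of the lower and 7 of the higher genes passed. Without ER-MyoD wt replicate 1 the counts shared with 12 h were 37 lower and 28 higher, and those shared with 24 h 29 and 44. Under median centring the counts shared with 12 h were 28 lower and 12 higher, and 15 higher genes were shared with 24 h. Without the 3 arrays that stood apart in the series, 81 lower genes were shared with 24 h. The 82 higher genes shared with 24 h were 52 without ER-MyoD RRR replicate 3 and 49 without ER-MyoD wt replicate 3.

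**Figure D4:**
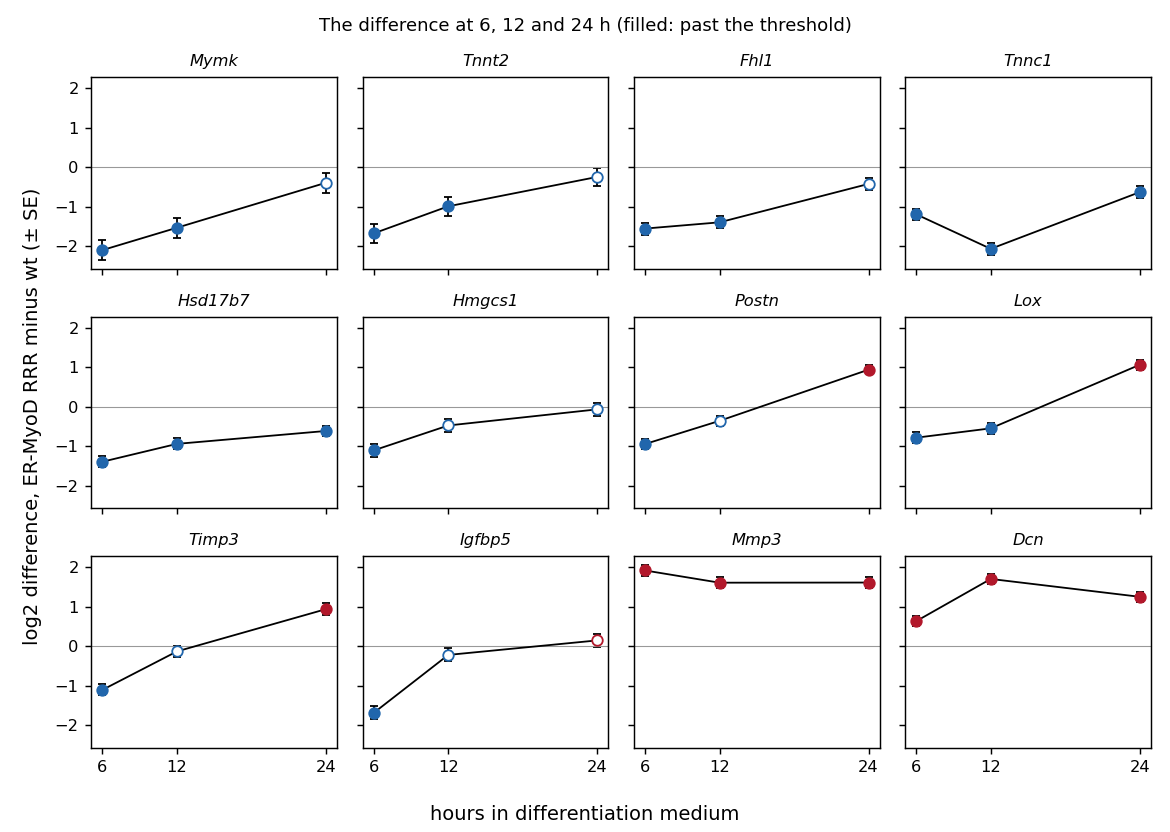
Log2 difference of ER-MyoD RRR minus ER-MyoD wt at 6, 12 and 24 h for 12 genes, with bars of 1 standard error of the limma fit (3 arrays per group) and filled points past the threshold. Mmp3 stayed between 1.61 and 1.92, Mymk moved from -2.10 to -0.39, and Postn, Lox and Timp3 changed sign by 24 h.

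A test of the change itself found 20 of the lower and 5 of the higher genes with a different ER-MyoD RRR minus wt value at 12 h than at 6 h, and 81 and 45 at 24 h. Over all genes this change was positive for 28 (0.154%) and negative for 9 (0.0495%) at 12 h, and positive for 242 (1.33%) and negative for 128 (0.704%) at 24 h. Since the genes were chosen by their 6 h difference, some return toward 0 is built into these counts. Mymk went from -2.10 at 6 h to -1.53 and -0.39 at 12 and 24 h, Tnnt2 from -1.67 to -0.99 and -0.24, and Fhl1 from -1.55 to -1.39 and -0.42. In each the difference shrank by 24 h. Tnnc1 instead was at -2.06 at 12 h and -0.63 at 24 h, Eno3 at -0.87 and -0.92, and Actg2 at -2.58 and -0.95, all past the threshold at each time. Mmp3 (1.61 and 1.62), Ccl2 (1.45 and 1.36), Ccl7 (1.25 and 1.49) and Id3 (1.24 and 0.95) stayed higher.

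A small group turned round. At 24 h 16 of the genes lower at 6 h were higher in ER-MyoD RRR (4.34%, where 3.34% of all genes were higher). For all 16 the change from 6 h passed. They were chosen for passing in opposite directions at both times, so that outcome was close to fixed and gives no added support. They were Aspn, Cald1, Cdh11, Col3a1, Col8a1, Gfra1, Ids, Insig1, Lox, Nusap1, Peg3, Postn, Rtn3, Slc20a1, Timp3 and Zfp36l1. Of these Gfra1, Ids, Nusap1, Peg3, Rtn3 and Slc20a1 were outside the rule for named genes and are named to complete the count. Postn went from -0.94 to 0.94 (adjusted p = 1.13e-05), Lox from -0.78 to 1.07 (6.16e-06) and Timp3 from -1.10 to 0.94 (9.31e-05). In the other direction 7 genes higher at 6 h were lower at 24 h (2.36%, where 2.03% of all genes were lower), Fez2, Gata4, Mgrn1, Nhp2, Pigq, Pxmp2 and Timm50, of which Gata4 alone was within the rule for named genes. These shares were near those of all genes.

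**Figure D5:**
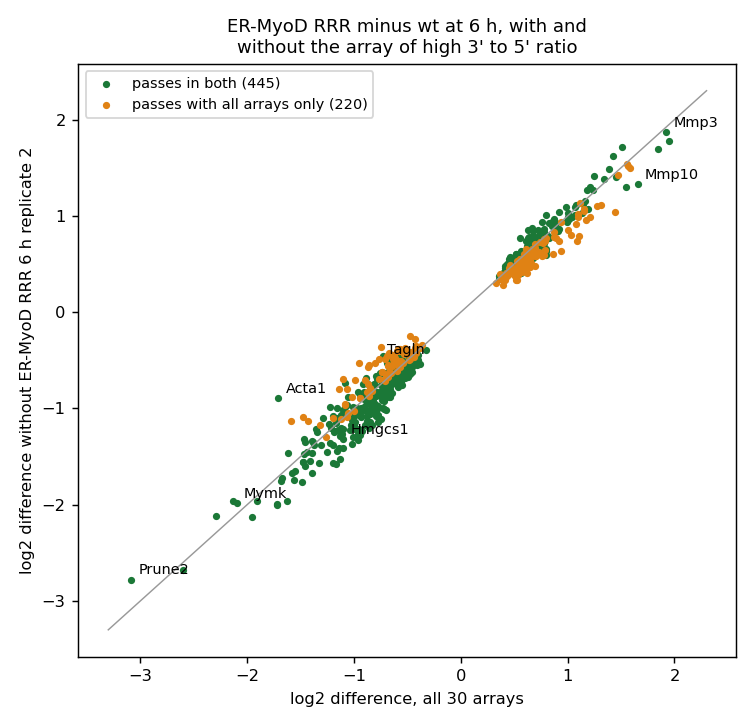
Log2 difference of ER-MyoD RRR minus ER-MyoD wt at 6 h with all 30 arrays (horizontal axis) and without ER-MyoD RRR replicate 2 (vertical axis) for the 665 genes past the threshold, with the line of equal values. Green genes (445) passed both ways and orange genes (220) passed with all arrays; Acta1 lies furthest from the line among those named, at -1.71 and -0.90.

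Leaving out ER-MyoD RRR replicate 2 kept 285 of the 369 lower genes (77.2%) and 160 of the 296 higher genes (54.1%) past the threshold. Of the 665, 0 changed sign. They were chosen by their 6 h difference with all arrays in, so few changes of sign could arise. The genes that lead most groups passed without replicate 2, among them Prune2 (-2.78), Mymk (-1.99), Tnnt2 (-1.72), Fhl1 (-1.65), Hsd17b7 (-1.47), Twist2 (1.16) and Mmp3 (1.87).

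Marker lists of cell types were read on the same arrays. The summed signal of 11 fibroblast markers was 40490.0 to 49520.0 in ER-MyoD wt, 45100.0 to 50020.0 in ER-MyoD RRR and 40000.0 to 42160.0 in the control, with 1 lower (Col3a1) and 1 higher (Dcn). The sum of 11 skeletal myoblast markers was 4401 to 5252 in ER-MyoD wt, 2535 to 3408 in ER-MyoD RRR and 1477 to 1700.0 in the control, with 3 lower (Mymk, Cdh15 and Myf5). That sum includes Myod1, the transduced gene, Myf5, a deleted one, and the called genes given above, so it is not a separate measure. Of the 11, 9 lay below 0. Pax3 and Des had higher means in ER-MyoD RRR, 157.7 against 109.6 and 73.04 against 45.86, and did not pass. In such bulk samples fewer cells of a type and less RNA per cell cannot be told apart. The other marker lists were cardiac, adipocyte, cartilage and bone, neural, blood, endothelial and epithelial. Their sums overlapped between ER-MyoD RRR and ER-MyoD wt, and 2 of their members passed, Gata4 (higher, 0.89) and Sox2 (lower, -0.85). Gata4 did not pass without replicate 3 of ER-MyoD RRR or replicate 1 or 3 of ER-MyoD wt (adjusted p = 0.0533 to 0.170) or under median centring (0.0715), nor Sox2 without replicate 1 or 3 of ER-MyoD RRR or replicate 2 or 3 of ER-MyoD wt (adjusted p = 0.0720 to 0.240) or under median centring (0.0742).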

How the data were processed

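Total RNA was labelled with biotin and hybridised to 30 one-colour Affymetrix Mouse Genome arrays. The authors deposited a linear signal intensity for each of 45101 probe sets, scaled so that the mean without the highest and lowest 2% was the same on every array, as the values show. The software is not given in the sources used here, nor are detection calls, scan dates or batches. A fold change from such intensities is relative within an array.

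The 64 control probe sets were left out of the tests. Signals were turned into log2(signal + 16) and quantile-normalised over 45037 probe sets in R 4.3.3, with the data.table package (version 1.17.8) for reading. Probe sets were named from the platform annotation: 34945 had 1 symbol, 932 several and 9160 none, and only the first were used. Each of 18193 genes was represented by its brightest probe set over all arrays. limma 3.58.1 (lmFit, then eBayes with a trend) was fitted to 10 group means over all 30 arrays, with 20 residual degrees of freedom. Benjamini-Hochberg adjustment ran over all genes, with a threshold of 0.05, and log2 differences are printed ± their standard error in this fit. The difference between times was tested as a contrast in the same fit. The steps were also run on simulated data, with independent noise of equal spread on every array. No array like ER-MyoD RRR replicate 2 was simulated, so that run says nothing about its effect. The number of arrays limits the precision.

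The rule for named genes took Myod1 with Myf5, then the 20 genes that rose most and the 20 that fell most among those past the threshold with no overlap between the groups, and up to 6 members of each gene list with the smallest p; other members of counted lists may be named. There were 38 lists for the comparison and 9 of cell type markers, with 742 of 784 genes measured. Members and lists were chosen with earlier results of these data known. The titles give replicate numbers in each group, but same-numbered arrays did not deviate together (correlations of 0.03, 0.01 and -0.03), so the numbers were not used as pairs. Alternatives were other normalisations, pseudocounts of 1 and 64, a filter on low signal, the mean of a gene's probe sets, fits of fewer arrays, array weights, no trend, left-out arrays, a block for the replicate number and a fold threshold. Promoter windows and motifs were read from RefSeq's GRCm38.p6 table with Python 3.11.15 and pandas 2.3.3, and figures were drawn with matplotlib 3.10.9. Protein sequences and the genome were not used here.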

Additional observations from a re-analysis of the deposited data

Results flagged for a closer look

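For the genes below the difference between the mutant and the wild-type fusion at a later time was not the same as at 6 h, by the limma test of the change itself (adjusted p under 0.05). Each value below is the later log2 difference minus that at 6 h, so a positive value is a move toward higher expression in ER-MyoD RRR. Because the genes were named for their 6 h difference, part of a return toward 0 follows from that choice.

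From 6 to 12 h the change was 1.47 for Igfbp5, 1.15 for Col3a1, 1.07 for Dcn, 0.97 for Timp3, 1.24 for Dnajc3 and 1.05 for Hspa5. Dcn had been higher in ER-MyoD RRR at 6 h and the others lower. At 12 h Igfbp5 stood at -0.22, Dcn at 1.71 and Timp3 at -0.13.

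From 6 to 24 h the muscle genes and regulators moved upward, by 1.71 for Mymk, 1.43 for Tnnt2, 1.13 for Fhl1, 1.15 for Zbtb18, 1.49 for Mycl, 1.29 for Lrp4, 0.69 for Celf1, 1.10 for Zfp36l1 and 0.91 for Cald1. At 24 h Mymk stood at -0.39, Tnnt2 at -0.24, Fhl1 at -0.42 and Zbtb18 at -0.32. The sterol genes moved by 0.78 for Hsd17b7, 0.84 for Idi1, 1.04 for Hmgcs1, 0.83 for Sqle and 0.79 for Cyp51. At 24 h their differences were -0.61, -0.41, -0.06, 0.08 and 0.11.

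For matrix and adhesion genes the change to 24 h was 1.89 for Postn, 1.85 for Lox, 1.94 for Aspn, 2.05 for Timp3, 1.54 for Col8a1, 0.98 for Col3a1, 0.79 for Col4a1, 1.30 for Cdh11 and 0.88 for Vcam1. Of these, Postn, Lox, Aspn, Timp3, Col8a1, Col3a1 and Cdh11 were lower at 6 h and higher at 24 h. Among growth factors and their binding proteins the change was 1.84 for Igfbp5, 1.95 for Igf1 and 1.23 for Tgfb3. For the chaperones it was 1.34 for Dnajc3 and 1.02 for Hsp90b1, and for the cell cycle genes 0.57 for Ccnd1 and 0.94 for Top2a.

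In the other direction Hoxb5 changed by -2.27, S100a8 by -1.93 and Gata4 by -1.90 to 24 h. All had been higher in ER-MyoD RRR at 6 h. At 24 h Hoxb5 stood at -0.33, S100a8 at -0.39 and Gata4 at -1.01.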

How the results depend on the processing

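The 665 genes past the threshold at 6 h kept their sign under every alternative tried except the mean of a gene's probe sets. There 7 lower and 3 higher genes turned, and of those named Mbnl1 reversed to 0.0205. The genes were chosen by their 6 h difference, and the alternatives used the same arrays or fewer. Few changes of sign could therefore arise, and their absence is no independent support. The counts depended more on the setting, and the cause was not tested. Under median centring 55 genes were higher and 199 lower, and 17 of the genes lower in ER-MyoD wt than in the control at 24 h were higher. The counts shared between 6 h and 12 h were 28 lower and 12 higher, with 15 higher shared with 24 h. With the mean of all probe sets 50 of the genes lower in ER-MyoD wt than in the control at 24 h were higher. The shared counts were then 29 higher with 12 h, and 30 lower and 50 higher with 24 h. A fit of 6 arrays gave 31 higher and 77 lower, a fit of 9 arrays 114 and 160, both with fewer arrays behind the spread. Array weights gave 624 lower, with 95 lower and 82 higher shared with 12 h. Without the 3 arrays of the series that stood apart (ER-MyoD RRR replicate 2 at 6 h, empty retrovirus replicate 1 at 12 h and ER-MyoD wt replicate 3 at 24 h) 628 were lower and 81 of them shared with 24 h. A 2-fold threshold, which by its construction keeps fewer genes, left 43 higher and 90 lower. It left 45 lower and 12 higher among the genes that were higher and lower in ER-MyoD wt than in the control at 24 h. Shared with 12 h were 24 lower and 8 higher, and with 24 h 8 lower and 9 higher. Leaving out single arrays gave 115 to 246 higher and 166 to 502 lower. Among the genes higher and lower in ER-MyoD wt than in the control at 24 h, it gave 64 to 110 lower and 39 to 59 higher. Shared with 12 h were 37 to 54 lower and 28 to 48 higher, and with 24 h 29 to 57 lower and 44 to 74 higher. With the replicate number as a block 346 genes were higher and 438 lower, and these held 291 of the 296 and 368 of the 369. Values as deposited, pseudocounts of 1 and 64, a filter at a mean signal of 50 and no trend moved neither count of calls by more than 1.5 times. Genes with a signal near the bottom of the range have compressed differences, and with no detection calls in the sources used here their presence was not assessed.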
